A study of Mus musculus with 9 samples.

Results

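Gene expression in quiescent mouse embryonic fibroblasts carrying either of 2 altered p27 genotypes was compared with that in wild-type (WT) cells, to find what the p27CK (CK) and p27 knockout (KO) genotypes have in common. The comparison set the average of the CK group mean and the KO group mean against the WT group mean. It used all 9 arrays of the study, 3 of each genotype, so the mutant side held 6 arrays. Of 11962 genes tested, 3265 were called in the same direction in CK against WT and in KO against WT, and these are referred to as shared genes.

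The cells were fibroblasts of the connective tissue, cultured from embryos and measured on Affymetrix arrays from total RNA. All 3 groups had been cultured in 10% serum and then deprived of serum for 72 h, so the 72 h without serum is common to WT, CK and KO and no growing cells were compared. The labels give the genotypes by name only. In published work p27CK is a p27 protein that has lost its binding to cyclins and cyclin-dependent kinases (CDKs). The protocol text mentions wild-type and delta51 mice and does not tie the word delta51 to the group titled KO. Strain, sex and embryonic age are not given in the labels. Nothing in them states that arrays of one group came from separate embryos or cultures, so a p-value weighs a difference only against the spread between these arrays, and that spread may be technical. Genotype and culture cannot be told apart. Both mutants were compared with the same 3 WT arrays. A feature particular to those WT cultures would appear in both mutants, and it cannot be told apart from an effect that the genotypes share.

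p27, the product of Cdkn1b, belongs to the Cip/Kip family of CDK inhibitors and accumulates when fibroblasts stop dividing. It binds cyclin-CDK complexes and holds back entry into S phase, and the pocket proteins and E2F factors act downstream of those kinases. p27 also has roles outside CDK inhibition, among them a part in transcriptional repression with pocket proteins and E2F4. A protein that cannot bind cyclins and CDKs would keep only roles of the latter kind, whereas a knockout lacks both.

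Values are log2 expression from the deposited table. A difference of 1 is a 2-fold change. Array medians lay between 7.29 and 7.40. Over all probe sets, 2 arrays of one genotype had a Pearson correlation of 0.995 to 0.998, with 0.967 to 0.975 between a WT array and a mutant array, and 0.964 to 0.969 between a CK array and a KO array. The mutants were thus correlated no better with each other than with WT. Of 13 fibroblast markers, 12 passed the filter on dim genes. The mean level of the 13 ran from 12.07 to 12.19 in WT, 11.89 to 11.97 in CK and 11.26 to 11.28 in KO, and among them Thy1 was at 11.73, 11.69 and 7.14 in turn. Macrophage, endothelial and adipocyte markers are given beside the gene groups they move with. Of 9 chondrocyte markers 8 passed the filter, and the mean level of the 9 was 8.32 to 8.60 in WT, 7.36 to 7.43 in CK and 10.50 to 10.85 in KO. All 8 rose in KO, 4 of them fell in CK, and none was shared. Cnmd fell furthest of the 9 in CK, its mean dropping from 13.33 (WT) to 7.3. Hapln1, left untested by the filter, was lower in both mutants. Its WT arrays spanned 7.07 to 8.20, against 5.73 to 5.88 for CK arrays and 6.06 to 6.39 for KO arrays. Of all tested genes, 51.2% were called in KO and 62.9% in CK, rises and falls together. The mean level of 6 epithelial markers was 6.82 to 6.91 in WT, 6.79 to 6.87 in CK and at least 6.92 in KO, and among them Cdh1 read 7.57, 7.47 and 7.49 on the KO arrays and at most 6.82 on the others. That of 6 muscle markers was 6.61 to 6.69 on every array. That of 5 neural markers was 6.72 to 6.89 in WT, 7.48 to 7.68 in CK and 6.74 to 6.85 in KO, and among them Nes, an intermediate filament of progenitor cells, read 9.80, 9.60 and 9.09 on the CK arrays and 5.94 to 6.25 on the others. Xist, which is transcribed from the inactive X, lay between 12.05 and 13.12 and the Y-linked Eif2s3y, Kdm5d and Uty between 4.89 and 5.91 on every array.

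Cdkn1b itself was lower in both mutants but by very different amounts. Its brighter probe set measured 11.42, 11.50 and 11.47 on the WT arrays, 10.99, 11.14 and 11.16 on the CK arrays and 7.44, 7.25 and 7.45 on the KO arrays. The groups did not overlap: CK arrays lay just under WT, and KO arrays lay near the background. The pooled difference was -2.23 (SE 0.061, limma adjusted p = 6.13e-10), made up of -0.37 in CK and -4.09 in KO. An exact two-sided permutation test of 6 mutant against 3 WT arrays gave p = 0.0238, the smallest that 84 splits allow. The dimmer probe set of the gene did not separate the 6 mutant arrays from WT, with a pooled difference of -0.08 (exact permutation p = 0.690). That average joined opposite signs, -0.34 in CK and 0.18 in KO. Its WT arrays read 7.36, 7.57 and 7.36, its CK arrays 6.96, 7.13 and 7.16 and its KO arrays 7.67, 7.57 and 7.58. All CK arrays thus lay below all WT arrays, and the KO arrays overlapped WT. The fall of Cdkn1b RNA in the pooled comparison therefore came mostly from the KO arrays. Of 76 tested genes within 10 Mb of Cdkn1b on chromosome 6, 27 were shared, 8 higher and 19 lower, which is 35.5% against 27.3% of all tested genes. Within 5 Mb, 12 of 27 tested genes were shared (44.4%), 5 higher and 7 lower.

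The pooled comparison called 6854 of 11962 genes (57.3%) by limma at a Benjamini-Hochberg adjusted p under 0.05, 3480 higher (29.1%) and 3374 lower (28.2%) in the mutants. At 2-fold or more, 316 genes were higher (2.64%) and 547 lower (4.57%). CK against WT called 7520 genes (62.9%) and KO against WT 6129 (51.2%). A pooled call does not mean that the mutants agree. Of the 6854 pooled calls, 3265 (47.6%) were shared. A further 2028 were called in CK only, 979 in KO only, 542 in opposite directions and 40 in neither mutant by itself.

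Shared genes split almost evenly by direction, with 1575 rises (13.2% of tested genes) and 1690 falls (14.1%), but the large changes were mostly falls. At 2-fold or more in each mutant there were 109 shared rises (0.911%) and 284 shared falls (2.37%). At 4-fold or more the counts were 24 and 88, at 8-fold 8 and 29, and at 16-fold 1 and 7. Many shared changes were small: in 1229 rises and 1117 falls the weaker mutant differed from WT by less than 1.5-fold. The median difference over all tested genes was 0.0060 in the pooled comparison, -0.011 in CK and 0.015 in KO.

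Agreement in direction went with frequent differences in size. CK and KO differed from each other in 7439 of all tested genes (62.2%), and in 1921 of the 3265 shared genes (58.8%). Among the 393 genes shared at 2-fold or more in each, 270 differed between the mutants and 224 differed by less than 1.5-fold. CK lay further from WT than KO in 168 of the 393, 55 rises and 113 falls, but in 1916 of all 3265 shared genes. The median absolute difference between CK and KO was 0.24 over shared genes and 0.27 over all tested genes. In 3894 genes (32.6%) all 6 mutant arrays lay on the same side of the 3 WT arrays, 1925 above (16.1%) and 1969 below (16.5%). Opposite calls in CK and KO were made for 1327 genes (11.1%), 627 higher in CK and lower in KO (5.24%) and 700 the reverse (5.85%), and 542 of them were still called in the pooled comparison.

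**Figure D1:**
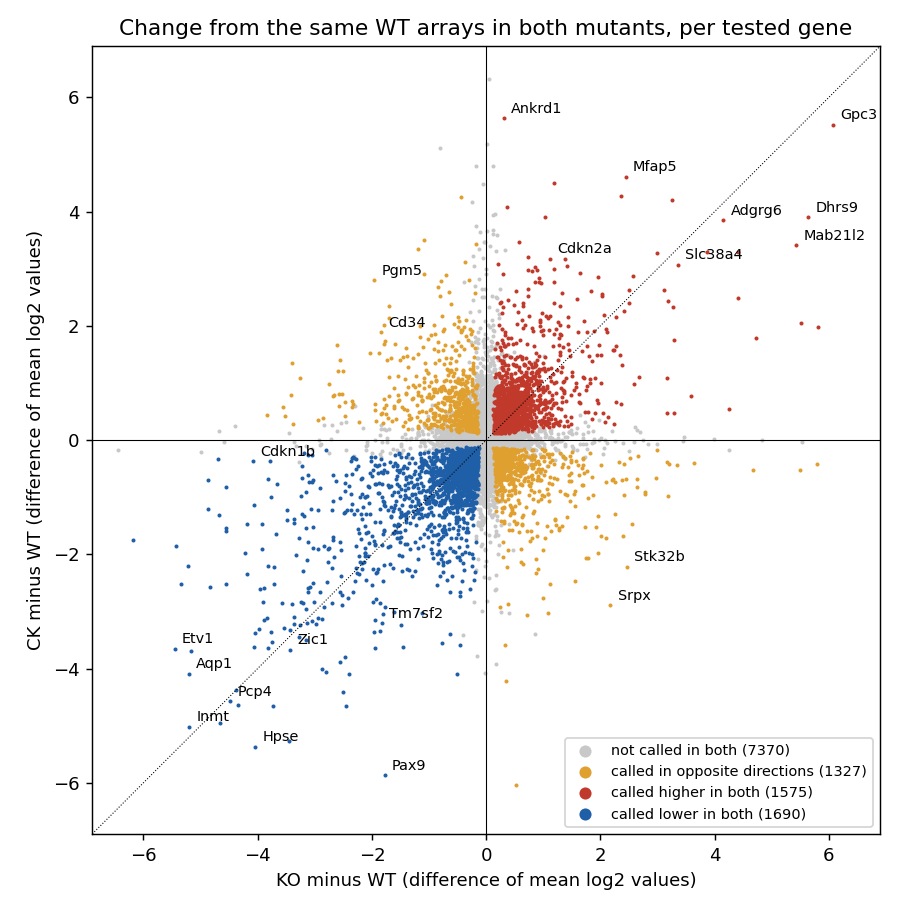
Each point is 1 of 11962 tested genes, with its KO minus WT difference on the x axis and its CK minus WT difference on the y axis (both log2, against the same 3 WT arrays). Red marks the 1575 genes higher in both mutants, blue the 1690 lower in both, orange the 1327 called in opposite directions and grey the rest. The dotted line marks equal change, and Pcp4 and Zic1 lie near it, while Cdkn1b and Ankrd1 lie far from it.

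When the 6 mutant arrays were treated as 1 group, so that the CK to KO difference counted as spread, limma called 2714 genes in place of 6854. Of the 2714, 2709 were shared genes. This comparison called 83.0% of the 3265 shared genes and 385 of the 393 shared at 2-fold or more. It takes CK and KO arrays as replicates of 1 condition, which they are not, and it uses the arrays that gave the shared calls. A call in this comparison is therefore no independent support for a shared change. Cdkn1b was not called in it (adjusted p = 0.192), and its CK and KO levels differed by 3.72. Shared genes that are named below and were not called there are marked where they are described. It called all 16 shared sterol falls and all 24 shared ribosomal protein rises, and lists in which it called many fewer members are marked too.

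Among the shared rises, 15 genes rose by 2.44 or more in the weaker mutant. They were chosen by that rank and by a lack of overlap between the mutant and the WT arrays. The largest was Gpc3, the cell surface heparan sulfate proteoglycan glypican-3, encoded on the X chromosome. Gpc3 measured 6.72, 6.53 and 6.62 on the WT arrays, 12.25, 12.14 and 12.04 on the CK arrays and 12.66, 12.70 and 12.72 on the KO arrays. WT arrays were at background level and all mutant arrays far above it, with a pooled difference of 5.79 (SE 0.059, limma adjusted p = 1.33e-12).

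Dhrs9, a short-chain dehydrogenase of retinol metabolism, measured 6.73, 6.50 and 6.69 on the WT arrays, 10.54, 10.54 and 10.54 on the CK arrays and 12.28, 12.28 and 12.27 on the KO arrays. Its KO arrays were higher than its CK arrays by 1.74, and the pooled rise was 4.77 (SE 0.054). Adgrg6, an adhesion G protein-coupled receptor, measured 8.09, 7.99 and 7.33 on the WT arrays, 11.40, 11.68 and 11.87 on the CK arrays and 12.01, 11.91 and 11.95 on the KO arrays. Here CK and KO were close, and the CK minus KO difference of -0.30 did not pass the test (limma adjusted p = 0.168). Mab21l2, a gene of embryonic patterning, rose from a mean of 6.97 in WT to 10.38 in CK and 12.39 in KO. Chrdl1, a secreted BMP antagonist, had means of 7.19 in WT, 10.48 in CK and 11.06 in KO. No mutant array came near a WT array, with a pooled rise of 3.58.

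Other large rises were Gca, the calcium-binding protein grancalcin (3.30 in CK and 4.41 in KO), Serpinb9b, a serpin of the granzyme B inhibitor family (4.21 in CK and 3.25 in KO), and Slc38a4, an amino acid transporter whose gene is imprinted (3.07 in CK and 3.36 in KO). Slc38a4 measured 8.02, 7.98 and 8.07 on the WT arrays, 11.03, 11.09 and 11.15 on the CK arrays and 11.44, 11.36 and 11.34 on the KO arrays. Its WT level was above the filter, so its fold of about 9.28 is not limited by background. Gna14, a Gq-class G protein subunit, rose by 3.27 in CK and 2.99 in KO, and Pkia, an inhibitor of protein kinase A, by 2.88 in CK and 2.57 in KO. Aif1l, an actin-binding protein, rose by 2.62 in CK and 3.12 in KO, Bves, a popeye-domain membrane protein, by 2.63 in CK and 2.50 in KO, and Cpa4, a carboxypeptidase, by 2.44 in CK and 3.19 in KO. Matrix genes in this set were Fmod, the collagen-binding proteoglycan fibromodulin (2.49 in CK and 4.41 in KO), and Mfap5, a microfibril protein (4.61 in CK and 2.44 in KO). For Fmod KO was further from WT, and for Mfap5 CK was.

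The 15 deepest shared falls, each at least 3.43 in the weaker mutant, were chosen by the same rank and lack of overlap. They were bright in WT, and many lay near the filter level in the mutants. Inmt, which methylates tryptamine and related indoles, measured 11.84, 11.70 and 12.04 on the WT arrays, 6.88, 7.02 and 6.62 on the CK arrays and 6.76, 6.61 and 6.63 on the KO arrays. Dio2, the deiodinase that activates thyroid hormone, measured 11.36, 11.23 and 11.57 on the WT arrays, 6.38, 6.41 and 6.52 on the CK arrays and 6.76, 6.77 and 6.65 on the KO arrays. Both genes were high on every WT array and under 7.24 on every mutant array, with pooled differences of -5.11 (SE 0.094, limma adjusted p = 5.50e-11) and -4.81 (SE 0.074, limma adjusted p = 1.64e-11). A group at background has no known level, so such folds may be understated. Among genes shared at 2-fold or more, both mutant means were below 7.24 in 36 of 284 falls and the WT mean in 28 of 109 rises.

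Aqp1, a water channel, measured 13.77, 13.76 and 13.67 on the WT arrays, 9.83, 9.77 and 9.32 on the CK arrays and 8.54, 8.60 and 8.46 on the KO arrays. It was the brightest of the set in WT and stayed above background in both mutants, lower in KO than in CK. Ramp2, the partner of the adrenomedullin receptor, measured 11.69, 11.85 and 11.58 on the WT arrays, 6.96, 7.07 and 7.16 on the CK arrays and 7.35, 7.36 and 7.38 on the KO arrays. Calcrl, the receptor that Ramp2 accompanies, fell as well, with means of 10.22 in WT, 7.07 in CK and 6.33 in KO, so both partners fell in both mutants. Hpse, the heparan sulfate-cleaving enzyme heparanase, measured 12.92, 12.85 and 12.69 on the WT arrays, 7.63, 7.14 and 7.57 on the CK arrays and 8.86, 8.94 and 8.52 on the KO arrays. CK was lower than KO for Hpse, and the pooled difference was -4.71 (SE 0.12).

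Lbp, the lipopolysaccharide-binding protein, measured 11.83, 11.86 and 12.01 on the WT arrays, 7.62, 7.69 and 7.29 on the CK arrays and 7.57, 7.49 and 7.53 on the KO arrays. Its CK and KO means were equal to 2 decimals. Pcp4, a calmodulin-binding peptide, fell (-4.57 in CK and -4.48 in KO), and Cd59a, an inhibitor of the complement attack complex (-4.66 in CK and -3.73 in KO). Among transcription factors, Etv1, an ETS factor downstream of ERK signalling, measured 12.39, 12.39 and 12.44 on the WT arrays, 8.81, 8.80 and 8.66 on the CK arrays and 7.08, 6.82 and 6.96 on the KO arrays, and Zic1, a zinc finger factor of neural and dorsal patterning, measured 9.55, 9.76 and 9.52 on the WT arrays, 5.84, 6.11 and 5.87 on the CK arrays and 6.18, 6.10 and 6.25 on the KO arrays. Etv1 fell further in KO, whereas for Zic1 both mutants reached background. Iqgap2, a scaffold that binds small GTPases (-3.69 in CK and -5.16 in KO), Adcy4, an adenylyl cyclase (-3.63 in CK and -4.07 in KO), Cyp2s1, a cytochrome P450 (-3.53 in CK and -3.74 in KO), Lrrn3 (-5.28 in CK and -3.46 in KO) and Prrg3 (-3.63 in CK and -3.81 in KO) completed the set.

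**Figure D2:**
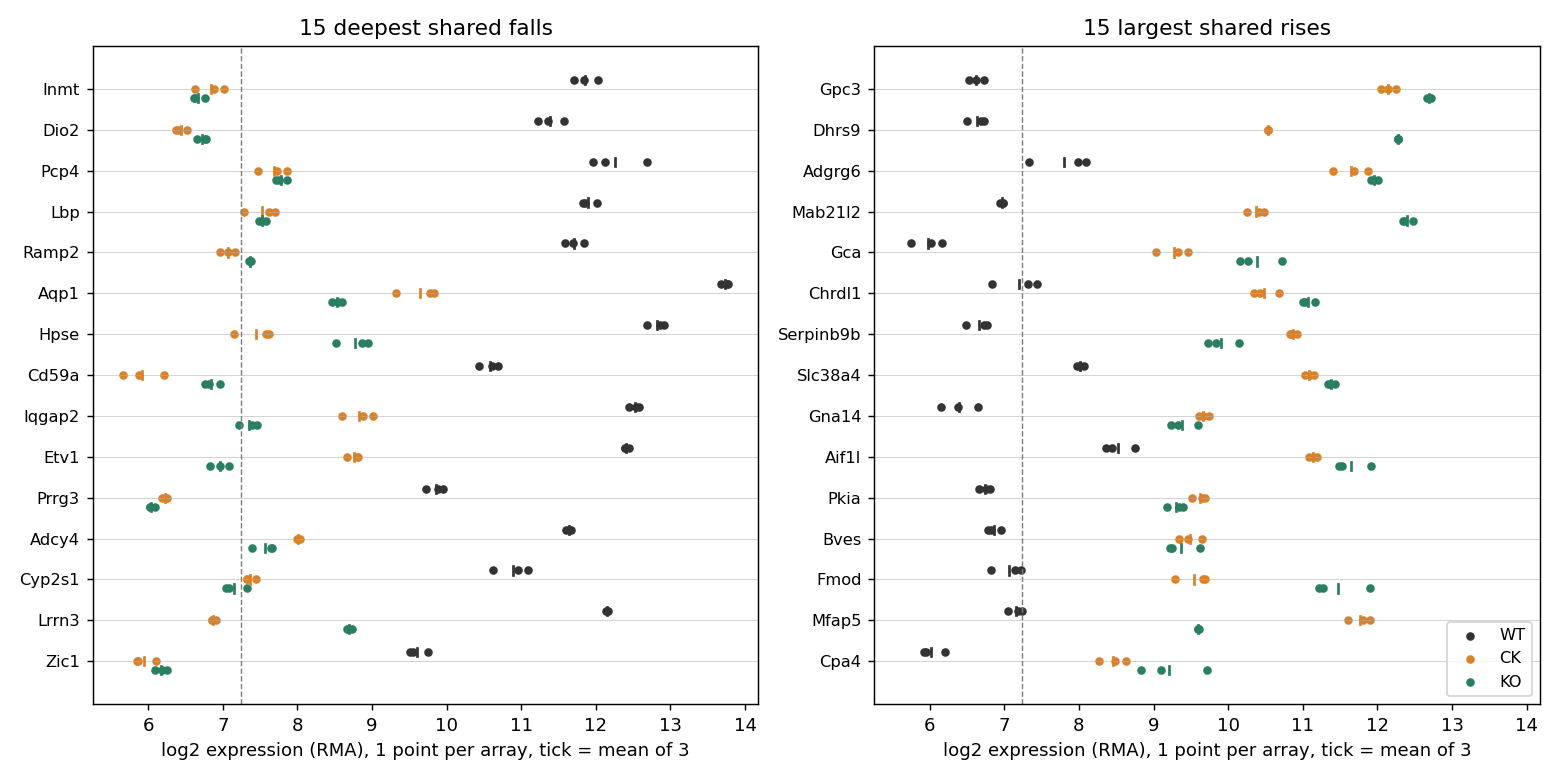
Log2 expression on each array for the 15 falls and 15 rises with the largest change in the weaker mutant, 1 point per array and a tick at each mean of 3 (WT dark grey, CK orange, KO green). The dashed line marks the filter level of 7.24. Mutant arrays of Inmt, Dio2, Zic1, Prrg3 and Cd59a lie below it. So do the WT arrays of the rises, except those of Adgrg6, Aif1l and Slc38a4 and some of Chrdl1. The 30 genes were chosen for a lack of overlap between mutant and WT arrays.

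Genes whose changes were nearly the same size in both mutants were sought among those at least 4-fold from WT in each. The 6 with the smallest CK minus KO difference were all falls. Besides Lbp they were Atp9a, a phospholipid flippase, Synpo2, an actin-binding protein, Tbx2, a T-box repressor, Ahr, the dioxin receptor, and Nlgn3, a neuroligin. Tbx2 measured 11.15, 10.99 and 11.15 on the WT arrays, 7.95, 7.91 and 7.72 on the CK arrays and 7.78, 7.93 and 7.79 on the KO arrays, a pooled difference of -3.25 with 0.02 between CK and KO. Ahr measured 11.84, 11.75 and 12.11 on the WT arrays, 9.54, 9.65 and 9.80 on the CK arrays and 9.53, 9.62 and 9.70 on the KO arrays, well above background in all groups. Its CK and KO arrays overlapped, and both group means lay more than 2 below WT, with a pooled difference of -2.26 (SE 0.086, limma adjusted p = 7.18e-09). Atp9a fell (-2.13 in CK and -2.13 in KO), Synpo2 (-2.15 in CK and -2.17 in KO) and Nlgn3 (-2.03 in CK and -2.08 in KO). These 6 were picked for their small CK minus KO difference, and limma called that difference in none of them (adjusted p from 0.729 to 0.979). The lack of a call follows from the choice and does not show that the levels are equal.

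Gene lists were then read by their counts of shared members against the background of 13.2% rises and 14.1% falls and the median pooled difference of 0.0060 over all tested genes. Sterol and fatty acid synthesis held many falls, and ribosome biogenesis, ribosomal proteins, translation factors and amino acid metabolism held many rises. DNA replication, mitosis and cartilage genes stood out by having few shared members.

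**Figure D3:**
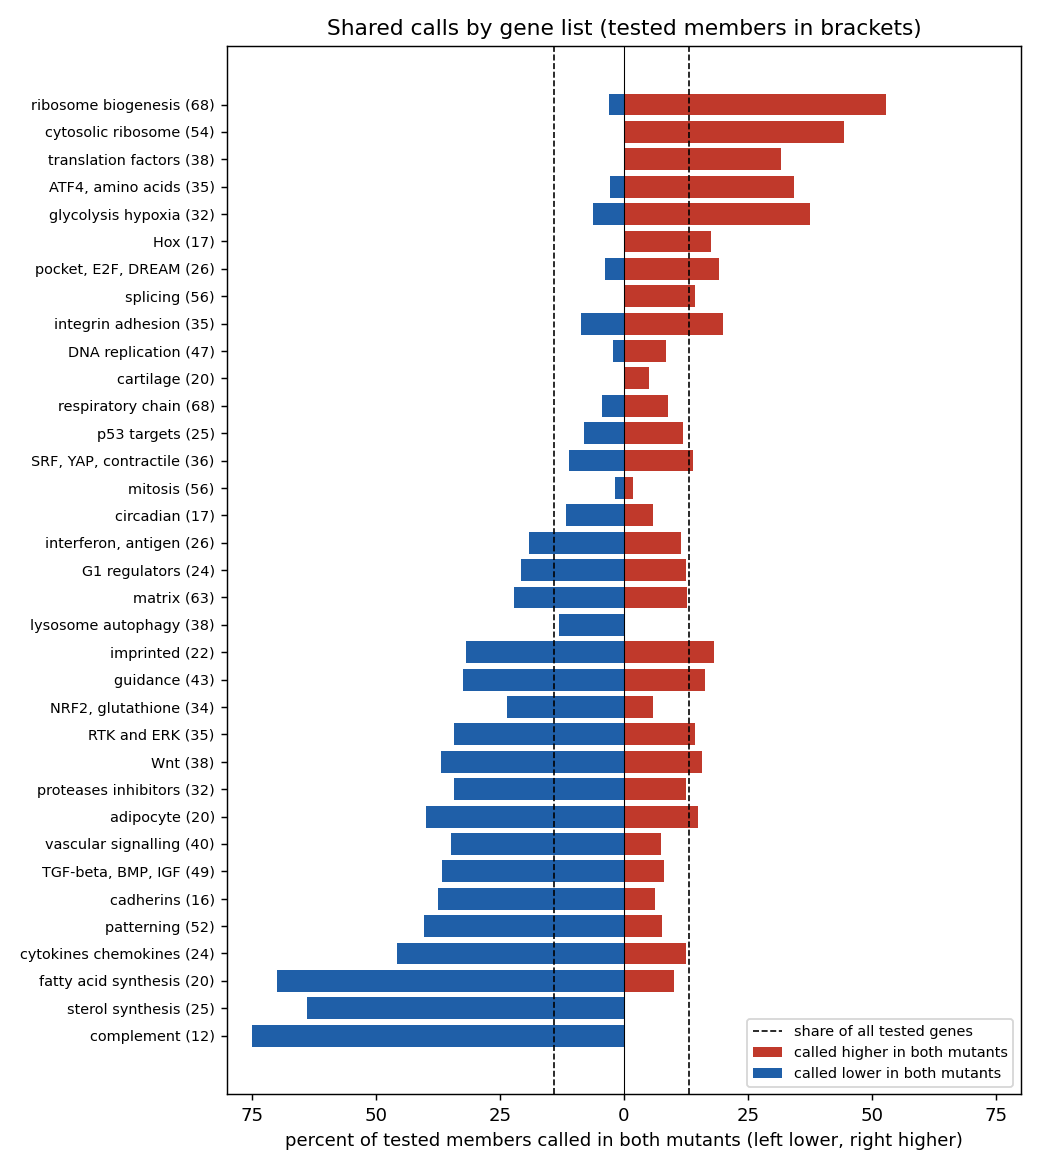
For each gene list shown (tested members in brackets) the bar to the right gives the percent of tested members called higher in both mutants and the bar to the left the percent called lower in both. Dashed lines mark the shares over all 11962 tested genes, 13.2% and 14.1%. Ribosome biogenesis reaches 52.9% rises, and complement, sterol and fatty acid synthesis reach 75%, 64% and 70% falls.

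Sterol synthesis makes cholesterol from acetyl-CoA in a long series of enzymes that the factor SREBP2, encoded by Srebf2, switches on together when cell cholesterol is low. Of 25 tested members, 16 fell in both mutants and none rose in both, and the list median was -0.51 in the pooled comparison, -0.63 in CK and -0.46 in KO. Falls ran the length of the pathway. At its start, Hmgcs1, the HMG-CoA synthase, measured 11.98, 11.94 and 11.76 on the WT arrays, 10.75, 10.49 and 10.47 on the CK arrays and 11.04, 11.08 and 11.08 on the KO arrays, which is a pooled difference of -1.07 (SE 0.072, limma adjusted p = 5.43e-07). In the middle, Sqle, the squalene epoxidase (-0.87 in CK and -0.51 in KO), Fdft1, the squalene synthase (-0.68 in CK and -0.59 in KO), and Idi1, the isopentenyl diphosphate isomerase (-0.89 in CK and -0.67 in KO), fell. Lss, the lanosterol synthase that closes the rings, measured 11.80, 11.69 and 11.74 on the WT arrays, 10.38, 9.98 and 10.33 on the CK arrays and 10.98, 11.08 and 10.98 on the KO arrays. Among the late enzymes, Tm7sf2, a sterol reductase, fell most and measured 11.07, 11.16 and 11.04 on the WT arrays, 7.81, 7.91 and 7.91 on the CK arrays and 9.27, 9.25 and 9.27 on the KO arrays. In all 3 of these genes CK lay below KO and KO below WT, with no overlap of arrays. Cyp51 (-0.54 in CK and -0.82 in KO), Nsdhl (-0.87 in CK and -0.83 in KO), Hsd17b7 (-1.05 in CK and -0.72 in KO) and Dhcr7 (-0.46 in CK and -0.56 in KO) fell as well.

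The regulators of the pathway did not move as one. The difference from WT of Srebf2 was -0.12 in CK and -0.02 in KO and that of Scap, the escort of SREBPs, 0.17 in CK and -0.02 in KO, and neither gene was shared. Srebf1, the relative that drives fatty acid synthesis, fell (-1.04 in CK and -0.37 in KO). Insig1, an SREBP target that retains SCAP, fell in CK (-1.04) and rose in KO (0.39). Mylip, which degrades the LDL receptor and is under the control of LXR rather than SREBP, measured 12.30, 12.27 and 12.16 on the WT arrays, 11.17, 11.17 and 11.10 on the CK arrays and 11.26, 11.34 and 11.16 on the KO arrays and fell in both. Of 30 listed genes 5 were not analysed here. Stard4, Mvk and Sc5d were not shared, and Lbr and Ebp passed the test in neither mutant. At 2-fold or more in each mutant only Tm7sf2 of the 25 remained. CK and KO differed in 15 of the 25, against 62.2% of all tested genes.

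**Figure D4:**
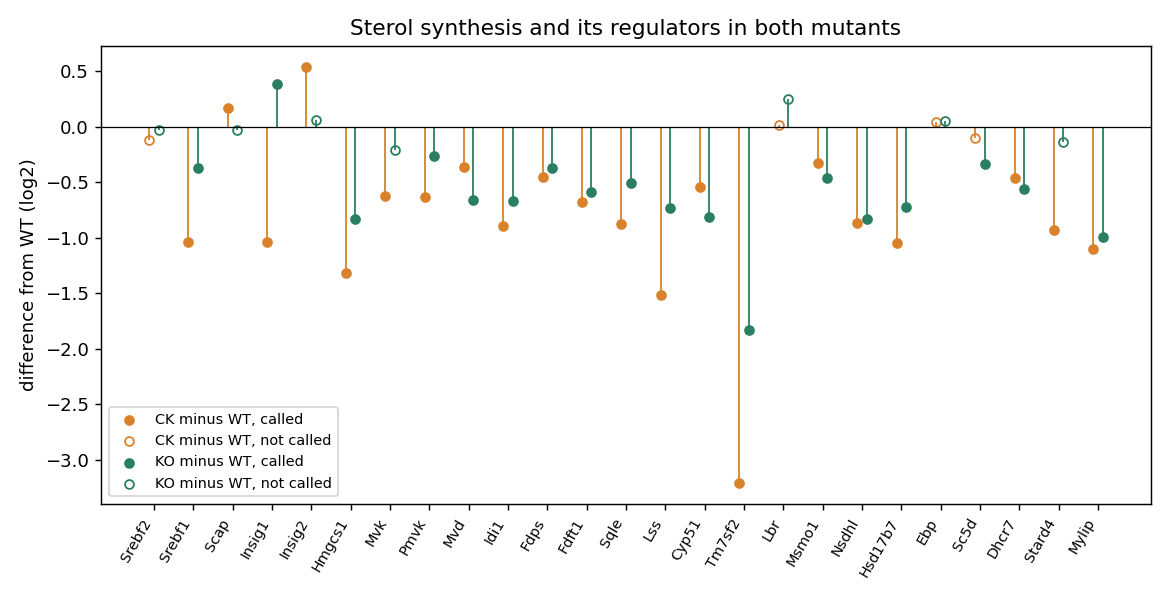
Log2 difference from WT of 25 tested sterol genes in CK (orange) and KO (green), regulators first and then enzymes in pathway order, with filled points for limma adjusted p under 0.05. Most enzymes lie below 0 in both mutants, Tm7sf2 lowest at -3.21 and -1.83. Srebf2, Lbr and Ebp lie near 0, and Insig1 has opposite signs.

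Promoter sequences of sterol genes are shown because these genes fell together. RefSeq promoter windows of 300 bases around the start of the gene (build GRCm38.p6) were at hand for 21 of the 25 genes. They were searched on both strands for CCAAT, the site of NF-Y, and for TCACNCCAC, a sterol regulatory element. Both motifs were chosen after the values of the lists had been seen, and no match of one overlaps a match of the other in the windows shown. CCAAT was in 20 of the 21 (95.2%), including all 13 shared genes with a window, against 42.7% of tested genes and 37.4% of all windows. TCACNCCAC was in 1 of the 21, Hmgcs1, against 1.38% of tested genes. Capitals mark both motifs (ATTGG is CCAAT on the other strand) in the windows of Hmgcs1 (chr13:119690101-119690400 on the plus strand), Lss (chr10:76531355-76531654 on the plus strand) and Tm7sf2 (chr19:6067801-6068100 on the minus strand), each written 5′ to 3′ along its gene.
Hmgcs1: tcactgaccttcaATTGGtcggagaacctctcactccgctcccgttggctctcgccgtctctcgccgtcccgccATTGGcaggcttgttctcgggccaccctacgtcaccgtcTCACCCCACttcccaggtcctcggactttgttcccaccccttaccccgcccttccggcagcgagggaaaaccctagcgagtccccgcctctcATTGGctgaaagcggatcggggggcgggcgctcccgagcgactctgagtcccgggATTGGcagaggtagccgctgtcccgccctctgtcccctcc
Lss: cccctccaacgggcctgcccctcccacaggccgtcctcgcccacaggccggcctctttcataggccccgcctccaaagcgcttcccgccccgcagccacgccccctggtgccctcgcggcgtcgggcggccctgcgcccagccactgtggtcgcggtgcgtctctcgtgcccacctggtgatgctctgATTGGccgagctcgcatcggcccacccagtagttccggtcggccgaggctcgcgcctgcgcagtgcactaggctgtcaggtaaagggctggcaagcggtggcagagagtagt
Tm7sf2: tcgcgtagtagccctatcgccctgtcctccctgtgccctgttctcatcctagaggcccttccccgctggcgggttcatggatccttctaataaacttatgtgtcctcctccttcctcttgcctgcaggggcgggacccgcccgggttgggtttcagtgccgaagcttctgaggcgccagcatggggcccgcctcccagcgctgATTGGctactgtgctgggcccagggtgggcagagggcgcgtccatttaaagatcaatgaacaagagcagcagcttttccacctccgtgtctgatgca
The Hmgcs1 window holds 4 copies of CCAAT and 1 sterol element, and the others 1 CCAAT each. A match describes these letters and shows no binding.

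Fatty acid synthesis followed the same direction, with 14 falls and 2 rises among 20 tested members and a list median of -0.46. Elovl7, an elongase of long-chain fatty acids, measured 11.54, 11.63 and 11.56 on the WT arrays, 6.96, 6.94 and 6.86 on the CK arrays and 9.19, 9.25 and 8.96 on the KO arrays and fell most. Elovl6 (-1.26 in CK and -0.74 in KO), Acly, which makes cytosolic acetyl-CoA (-0.76 in CK and -0.68 in KO), Acaca, the acetyl-CoA carboxylase (-0.84 in CK and -0.44 in KO), Scd1, a desaturase (-0.50 in CK and -0.54 in KO), and Fasn, the synthase itself (-0.28 in CK and -0.40 in KO), fell by less. The desaturase Fads1 was bright in every group and measured 13.25, 13.24 and 13.21 on the WT arrays, 12.77, 12.69 and 12.68 on the CK arrays and 12.41, 12.38 and 12.37 on the KO arrays. Its fall was small but free of overlap. Elovl1 (0.52 in CK and 0.81 in KO) and Dgat2, which makes triglyceride (1.06 in CK and 0.88 in KO), rose in both mutants. Of 20 tested adipocyte genes, 8 fell and 3 rose in both. Pparg, the main factor of fat cell differentiation, fell (-2.46 in CK and -0.69 in KO), and Cebpa, its partner (-0.94 in CK and -0.74 in KO). Of the 11 shared, 5 falls and 1 rise were also called with the mutants as 1 group. The pooled fall of Pparg was not called when the mutants were treated as 1 group (adjusted p = 0.0675). Of 5 adipocyte markers, Pparg and Cebpa were the 2 that fell in both. Fabp4, a fatty acid carrier of fat cells, was called in opposite directions, with 7.84, 7.97 and 7.98 on the WT arrays, 8.99, 9.01 and 8.87 on the CK arrays and 7.49, 7.51 and 7.35 on the KO arrays. Plin1 lay between 7.26 and 7.50 and Adipoq, a defining fat cell marker, between 5.93 and 6.02 on every array. The mean level of the 5 was 8.17 to 8.26 in WT, 7.72 to 7.82 in CK and 7.79 to 7.89 in KO.

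Ribosome biogenesis genes make and process ribosomal RNA in the nucleolus, and 36 of 68 tested members rose in both mutants while 2 fell. The list median was 0.32 (0.28 in CK and 0.33 in KO). Polr1e, a subunit of RNA polymerase I, measured 7.75, 7.71 and 7.74 on the WT arrays, 8.97, 8.90 and 8.86 on the CK arrays and 8.51, 8.55 and 8.49 on the KO arrays, which is a pooled difference of 0.98 (SE 0.044, limma adjusted p = 2.32e-08). Utp4, a part of the small subunit processome, measured 10.81, 10.89 and 10.72 on the WT arrays, 11.83, 11.79 and 11.90 on the CK arrays and 11.56, 11.50 and 11.51 on the KO arrays, and all mutant arrays exceeded all WT arrays. Rrp9 (1.23 in CK and 0.58 in KO), Gnl2 (0.99 in CK and 0.87 in KO), Heatr1 (1.04 in CK and 0.61 in KO), Dkc1, the pseudouridine synthase dyskerin (0.82 in CK and 0.64 in KO), and Ncl, the nucleolar protein nucleolin (0.28 in CK and 0.55 in KO), rose too. The 2 falls were Utp6 (-0.57 in CK and -0.30 in KO) and Rrp8 (-0.26 in CK and -0.20 in KO). The changes were small: no member reached 2-fold in both mutants.

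Of 54 tested cytosolic ribosomal protein genes, 24 rose and none fell in both mutants, with a list median of 0.24. KO contributed more: 44 members rose in KO against WT, compared with 25 in CK, where 4 fell. Over all tested genes KO called 51.2% and CK 62.9%, rises and falls together. Rpsa measured 12.51, 12.54 and 12.34 on the WT arrays, 13.33, 13.06 and 13.08 on the CK arrays and 13.05, 13.12 and 13.10 on the KO arrays and Rplp0 measured 13.02, 13.03 and 13.01 on the WT arrays, 13.49, 13.36 and 13.43 on the CK arrays and 13.34, 13.34 and 13.36 on the KO arrays. Each rise was under 2-fold and yet larger than the spread between arrays, as for Rpsa with a pooled difference of 0.66 (SE 0.070, limma adjusted p = 1.77e-05). These genes have many processed pseudogenes, whose transcripts a probe set may not separate. Of 38 tested translation factors, 12 rose and none fell in both, with a median of 0.20, and 7 of the 12 were also called with the mutants as 1 group. Eif2b3, a subunit of the eIF2 exchange factor, rose evenly (0.75 in CK and 0.77 in KO). Eif4ebp1, an inhibitor of cap-dependent translation, rose by 1.79 in CK and 0.44 in KO and lost its pooled call when the mutants were treated as 1 group (adjusted p = 0.0838). The E-box CACGTG, searched in the same windows, was in 11 of 59 ribosome biogenesis genes (18.6%) against 11.8% of tested genes. Among the 32 shared members with a window it was in 4 (12.5%), the same percentage as among all shared genes with a window.

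Genes of amino acid supply that the stress factor ATF4 controls rose widely in CK and in part in KO. Of 35 tested members 12 rose and 1 fell in both mutants, and the median was 1.24 in CK but 0.17 in KO. In CK 32 members rose, in KO 13 rose and 6 fell. Of all tested genes, CK called 62.9% and KO 51.2%, rises and falls together. Asns, the asparagine synthetase, measured 11.27, 11.13 and 11.30 on the WT arrays, 13.16, 13.12 and 13.15 on the CK arrays and 12.06, 12.04 and 12.07 on the KO arrays. Slc7a5, a large neutral amino acid carrier, measured 10.78, 10.74 and 10.48 on the WT arrays, 13.05, 12.99 and 13.16 on the CK arrays and 11.90, 11.90 and 11.78 on the KO arrays, and Slc7a1, a cationic amino acid carrier, measured 9.30, 9.33 and 9.40 on the WT arrays, 11.44, 11.33 and 11.47 on the CK arrays and 10.64, 10.66 and 10.52 on the KO arrays. In each the order was CK above KO above WT, without overlap. Psat1 (2.16 in CK and 1.06 in KO) and Phgdh (1.24 in CK and 1.09 in KO), enzymes of serine synthesis, rose in both. Chac1, which degrades glutathione, measured 8.84, 8.80 and 8.50 on the WT arrays, 12.22, 12.18 and 12.18 on the CK arrays and 9.35, 9.23 and 9.27 on the KO arrays, and its pooled rise of 2.02 was lost when the mutants were treated as 1 group (adjusted p = 0.133). Atf4 itself was not shared (0.53 in CK and -0.06 in KO).

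The amino acid response element, searched as TGATGNAA on both strands, was in 10 of 30 genes of that list with a window (33.3%), of which 4 were among the 12 shared, against 2.58% of tested genes and 4.51% of all genes. It is shown in capitals for the shared genes Asns (chr6:7693160-7693459 on the minus strand) and Chac1 (chr2:119350992-119351291 on the plus strand).
Asns: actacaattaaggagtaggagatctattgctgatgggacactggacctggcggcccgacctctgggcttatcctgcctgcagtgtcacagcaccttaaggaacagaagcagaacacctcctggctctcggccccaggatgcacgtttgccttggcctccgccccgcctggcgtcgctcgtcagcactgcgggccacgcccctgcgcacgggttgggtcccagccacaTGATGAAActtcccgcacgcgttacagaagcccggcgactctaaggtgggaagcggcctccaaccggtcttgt
Chac1: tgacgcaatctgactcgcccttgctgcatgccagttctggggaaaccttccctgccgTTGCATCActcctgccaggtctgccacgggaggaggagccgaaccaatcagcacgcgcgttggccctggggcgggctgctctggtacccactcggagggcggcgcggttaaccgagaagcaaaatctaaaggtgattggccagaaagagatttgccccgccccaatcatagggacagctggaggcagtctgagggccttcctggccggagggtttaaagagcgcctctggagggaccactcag
In Asns the element reads along the gene, and in Chac1 it lies on the other strand.

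Receptor tyrosine kinase and ERK genes fell more often than they rose, 12 against 5 of 35 tested. Falls included transcripts that ERK activity induces. Spry4, a feedback inhibitor of the pathway, measured 11.84, 11.85 and 11.99 on the WT arrays, 9.55, 9.53 and 9.55 on the CK arrays and 7.72, 7.63 and 7.76 on the KO arrays, and both mutants lay far below WT. Spry1 (-1.01 in CK and -2.55 in KO), Spry2 (-1.08 in CK and -0.60 in KO), the phosphatase Dusp6 (-0.78 in CK and -1.27 in KO) and the ETS factors Etv4 (-0.93 in CK and -1.89 in KO) and Etv5 (-1.99 in CK and -0.42 in KO) fell as well. Ligands of the fibroblast growth factor family fell: Fgf10 measured 10.67, 10.66 and 10.62 on the WT arrays, 8.52, 8.43 and 8.32 on the CK arrays and 7.02, 6.96 and 6.82 on the KO arrays, and Fgf7 fell (-2.38 in CK and -1.29 in KO) and Fgf2 (-0.77 in CK and -1.94 in KO). Of the receptors, Pdgfra, which also marks fibroblasts, fell (-0.73 in CK and -1.32 in KO) and Pdgfrb (-0.70 in CK and -0.29 in KO), whereas Met, the receptor for hepatocyte growth factor, rose by 2.41 in CK and 0.64 in KO and Insr by 0.69 in CK and 0.64 in KO. The pooled changes of Etv5 and Met were not called with the mutants as 1 group (adjusted p = 0.104 and 0.0740).

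In the TGF-beta, BMP and IGF list 18 of 49 tested members fell and 4 rose in both mutants. The list median was -0.34 over tested and -0.26 over the 54 measured members. Among ligands, Bmp2 (-1.21 in CK and -4.86 in KO), Igf1 (-2.01 in CK and -3.33 in KO) and Igf2 (-0.68 in CK and -3.82 in KO) fell, the first and the last far more in KO. The KO arrays of Igf1 were spread widely, at 7.64, 7.57 and 8.70. Among secreted binding proteins, Igfbp4 measured 12.64, 12.67 and 12.66 on the WT arrays, 11.15, 11.06 and 11.16 on the CK arrays and 8.24, 7.96 and 8.11 on the KO arrays, and Fst, the activin antagonist follistatin, measured 11.36, 11.61 and 11.63 on the WT arrays, 7.78, 7.94 and 7.97 on the CK arrays and 9.48, 9.48 and 9.82 on the KO arrays. Igfbp4 was lowest in KO and Fst lowest in CK. The Id genes, direct targets of BMP signalling that block bHLH factors, all fell in both mutants: Id1 (-2.32 in CK and -0.76 in KO), Id2 (-2.15 in CK and -0.40 in KO), Id3 (-1.96 in CK and -0.54 in KO) and Id4 (-2.91 in CK and -1.76 in KO). For each of the 4, CK was further from WT. The pooled falls of Bmp2, Igf2, Id2 and Id3 were not called with the mutants as 1 group (adjusted p = 0.0832, 0.132, 0.118 and 0.0748). Rises were Smad3 (0.54 in CK and 1.31 in KO), Tgfbr2 (0.44 in CK and 0.73 in KO), Inhbb (0.77 in CK and 0.75 in KO) and Igf2r, which clears IGF2 (0.98 in CK and 0.84 in KO).

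Among 38 tested Wnt genes, 14 fell and 6 rose in both mutants. With the mutants as 1 group 10 of the 14 falls and 4 of the 6 rises were called. Rspo1, a secreted enhancer of Wnt signalling, measured 11.15, 10.99 and 11.19 on the WT arrays, 9.02, 9.09 and 8.81 on the CK arrays and 8.43, 8.20 and 8.37 on the KO arrays, and Rspo2, its relative, measured 11.70, 11.64 and 11.52 on the WT arrays, 9.56, 9.76 and 9.87 on the CK arrays and 9.57, 9.57 and 9.34 on the KO arrays. Both were lower on every mutant array. Sfrp2, a secreted Wnt antagonist, fell (-1.31 in CK and -4.68 in KO), the receptor Fzd4 (-2.30 in CK and -1.24 in KO) and the R-spondin receptor Lgr4 (-0.85 in CK and -0.94 in KO). Fzd6, another receptor, measured 8.11, 7.99 and 7.61 on the WT arrays, 10.14, 10.09 and 10.26 on the CK arrays and 10.39, 10.32 and 10.23 on the KO arrays and rose evenly, and Lgr5 rose by 1.79 in CK and 4.73 in KO. Among Wnt ligands, Wnt5a (-0.23 in CK and -1.52 in KO) and Wnt5b (-0.65 in CK and -0.48 in KO) fell. The pooled falls of Sfrp2 and Wnt5a were not called with the mutants as 1 group (adjusted p = 0.0684 and 0.143).

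Transcription factors of limb, face and body wall patterning fell in 21 of 52 tested cases and rose in 4. With the mutants as 1 group 15 of the 21 falls and 3 of the 4 rises were called. The list held 61 measured genes, of which 9 did not pass the filter, and its median was -0.56 over tested and -0.19 over measured members. Osr2, a factor of palate and limb mesenchyme, measured 12.93, 12.91 and 13.03 on the WT arrays, 10.32, 10.58 and 10.41 on the CK arrays and 7.69, 7.73 and 7.44 on the KO arrays. Foxf2, a forkhead factor of mesenchyme, measured 11.21, 11.16 and 11.19 on the WT arrays, 8.43, 8.71 and 8.71 on the CK arrays and 6.39, 6.30 and 6.37 on the KO arrays. In both, KO was lower than CK. Pax9, a factor of the face and axial skeleton, measured 12.64, 12.61 and 12.72 on the WT arrays, 6.83, 6.97 and 6.56 on the CK arrays and 10.85, 10.92 and 10.88 on the KO arrays, with CK far lower than KO, and was not called when the mutants were treated as 1 group (adjusted p = 0.0544). Lhx9 (-2.32 in CK and -2.26 in KO), Irx3 (-1.63 in CK and -1.63 in KO), Prrx1 (-1.13 in CK and -1.60 in KO) and Prrx2 (-2.54 in CK and -1.99 in KO) fell in both. The 4 rises were Emx2 (3.00 in CK and 1.19 in KO), Foxf1 (1.86 in CK and 1.18 in KO), Gata6 (0.71 in CK and 1.16 in KO) and Msx1 (0.24 in CK and 1.16 in KO), of which Msx1 was not called with the mutants as 1 group (adjusted p = 0.110). Of 37 measured Hox genes only 17 passed the filter, and Hoxa2 (0.28 in CK and 2.24 in KO), Hoxa4 (0.29 in CK and 0.51 in KO) and Hoxa7 (0.37 in CK and 1.10 in KO) were the shared members. The pooled rise of Hoxa2 was lost when the mutants were treated as 1 group (adjusted p = 0.167), and its CK arrays overlapped WT.

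Matrix genes moved both ways, with 14 falls and 8 rises among 63 tested. CK and KO differed in 55 of the 63, against 62.2% of all tested genes. With the mutants as 1 group 9 of the 14 falls and 7 of the 8 rises were called. The elastic fibre gene Eln fell (-2.65 in CK and -3.11 in KO), Efemp1, a fibulin (-1.91 in CK and -3.93 in KO), Col14a1 (-2.47 in CK and -2.30 in KO), Has2, which makes hyaluronan (-2.33 in CK and -1.92 in KO) and Col3a1 (-0.59 in CK and -0.94 in KO). The WT arrays of Col14a1 were spread widely, at 10.2, 10.3 and 8.9, and its mutant arrays lay between 7.3 and 7.6. Col18a1 measured 10.88, 10.88 and 10.71 on the WT arrays, 9.92, 9.88 and 9.93 on the CK arrays and 7.67, 7.55 and 7.76 on the KO arrays, and its pooled fall was lost when the mutants were treated as 1 group (adjusted p = 0.0616). Besides Gpc3, Fmod and Mfap5, the glypican Gpc1 measured 9.51, 9.49 and 9.31 on the WT arrays, 10.92, 10.80 and 10.82 on the CK arrays and 10.69, 10.72 and 10.70 on the KO arrays and rose evenly, and Lama5 (2.77 in CK and 1.20 in KO), Col12a1 (1.48 in CK and 0.93 in KO) and Fn1 (0.49 in CK and 0.29 in KO) rose. Of 32 tested proteases and inhibitors, 11 fell and 4 rose in both. Mmp23 measured 9.50, 9.42 and 9.60 on the WT arrays, 7.39, 7.37 and 7.34 on the CK arrays and 7.24, 7.27 and 7.38 on the KO arrays, with little difference between the mutants. Mmp9, a gelatinase, fell (-1.46 in CK and -3.36 in KO) and Serping1, the C1 inhibitor (-3.80 in CK and -2.47 in KO), whereas Htra1 rose by 3.17 in CK and 1.39 in KO and Plau, the urokinase, by 1.00 in CK and 0.93 in KO.

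Adhesion and contractile genes had shared members about as often as tested genes at large. Of 35 tested integrin and adhesion genes 7 rose and 3 fell in both, of which 3 rises and 2 falls were also called with the mutants as 1 group. Tln2, a talin that links integrins to actin, measured 8.50, 8.49 and 8.30 on the WT arrays, 9.97, 9.79 and 9.95 on the CK arrays and 9.96, 9.94 and 9.81 on the KO arrays and rose by the same amount in CK and KO. Of 36 tested genes of contraction and of SRF and YAP activity, 5 rose and 4 fell. Fhl2 rose by 1.27 in CK and 1.33 in KO and Mylk, the myosin light chain kinase, fell (-1.71 in CK and -3.27 in KO). Ankrd1, a YAP target, rose by 5.64 in CK but only by 0.31 in KO, and its pooled rise was lost when the mutants were treated as 1 group (adjusted p = 0.220).

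Vascular signalling genes fell in 14 and rose in 3 of 40 tested cases, and the list median was -0.21 over tested and -0.02 over the 49 measured members. Besides Aqp1, Ramp2 and Calcrl, the falls included Tfpi, the tissue factor inhibitor, which measured 11.50, 11.54 and 11.58 on the WT arrays, 9.92, 9.99 and 9.94 on the CK arrays and 7.03, 6.73 and 7.23 on the KO arrays, Tek, the angiopoietin receptor (-2.26 in CK and -1.97 in KO), and Ptgir, the prostacyclin receptor (-0.82 in CK and -0.93 in KO). Tek is also an endothelial marker, and its WT arrays read 8.85, 8.57 and 8.90 while Pecam1, Kdr, Emcn, Tie1 and Cldn5 lay between 5.60 and 7.30 on every array. Cdh5, a cadherin that defines endothelial cells, read 7.27, 7.27 and 7.01 on the WT arrays and 6.43 to 6.78 on the mutant arrays, and it was not tested because its mean lay under the filter level. Of 7 endothelial markers Tek alone passed the filter, and their mean level was 6.97 to 7.03 in WT, 6.55 to 6.65 in CK and 6.56 to 6.62 in KO. The part of endothelial RNA in the falls was not tested. The rises were Edn1, endothelin-1 (1.09 in CK and 3.16 in KO), Cxcl12 (pooled 1.35) and Nrp2 (0.25 in CK and 1.43 in KO), of which Nrp2 was not called with the mutants as 1 group (adjusted p = 0.133).

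Inflammatory genes fell more often than they rose among those that passed the filter, which genes bright only in WT could pass by way of WT. Of 40 measured cytokine and chemokine genes 24 passed the filter, and 11 of these fell and 3 rose in both mutants. The list median was -0.42 over tested but -0.01 over measured members. Icam1, an adhesion receptor for leukocytes, measured 11.82, 11.79 and 11.69 on the WT arrays, 9.11, 9.14 and 9.25 on the CK arrays and 7.77, 7.77 and 7.88 on the KO arrays. Cxcl16, a membrane-bound chemokine, measured 10.28, 10.39 and 10.24 on the WT arrays, 7.57, 7.71 and 7.66 on the CK arrays and 7.84, 7.79 and 7.59 on the KO arrays and fell by nearly the same amount in both. Cx3cl1 (-1.26 in CK and -1.49 in KO) and Ptges, a prostaglandin E synthase (-1.29 in CK and -3.23 in KO), fell too, and Ccl2 fell (-0.34 in CK and -4.70 in KO), though its pooled fall was not called with the mutants as 1 group (adjusted p = 0.208). In the complement list 12 of 19 measured genes passed the filter, and 9 fell and none rose in both, with a median of -1.23 over tested and -0.48 over measured members. C4b, the C4 component, measured 10.54, 10.71 and 10.32 on the WT arrays, 7.91, 7.80 and 7.26 on the CK arrays and 7.19, 6.98 and 7.22 on the KO arrays, and C2 measured 8.98, 8.86 and 8.66 on the WT arrays, 7.08, 7.08 and 6.88 on the CK arrays and 6.87, 6.91 and 6.88 on the KO arrays. Clu, clusterin (-1.82 in CK and -1.39 in KO), and Cd55, a brake on complement (-1.75 in CK and -2.68 in KO), fell as well. The falls thus took in components and inhibitors alike. Cd68, a lysosomal protein of macrophages, also fell (-2.05 in CK and -2.66 in KO), whereas Lyz2, lysozyme of macrophages, rose (0.70 in CK and 1.93 in KO). Of 7 macrophage markers these 2 passed the filter, and the mean level of the 7 was 7.08 to 7.11 in WT, 6.69 to 6.79 in CK and 6.76 to 6.91 in KO. Cd14, a receptor for lipopolysaccharide on macrophages, read 7.76, 7.91 and 7.94 on the WT arrays and 6.51 to 6.87 on the mutant arrays, and it was not tested because its mean lay under the filter level. Ptprc, Csf1r, Adgre1 and Itgam lay between 5.73 and 6.34 on every array. The part of macrophage RNA in these falls was not tested.

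The mutants shared few changes in DNA replication and mitosis genes. Of 47 tested DNA replication genes 4 rose and 1 fell in both (8.51% and 2.13%), although 32 rose in CK. In KO 4 rose and 15 fell. Of 56 tested mitosis genes 1 rose and 1 fell in both: Cdc20, an activator of the anaphase-promoting complex (0.80 in CK and 0.49 in KO), and Cdc25b, a phosphatase that activates CDK1 (-1.05 in CK and -0.78 in KO). In CK 21 mitosis genes rose and 1 fell, and in KO 1 rose and 31 fell. For both lists the background, rises and falls together, is 62.9% of all tested genes called in CK and 51.2% in KO. The pooled medians of the lists, 0.15 and -0.05, do not show this: the medians were 0.37 and 0.31 in CK and -0.10 and -0.47 in KO. Mcm2, a subunit of the replicative helicase, measured 10.33, 10.21 and 10.28 on the WT arrays, 11.22, 11.04 and 11.09 on the CK arrays and 10.47, 10.41 and 10.58 on the KO arrays, and its pooled call was lost when the mutants were treated as 1 group (adjusted p = 0.0915).

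Among 24 tested regulators of G1, 3 rose and 5 fell in both. Cdkn2a, which encodes the inhibitors p16 and ARF, measured 7.88, 7.81 and 7.71 on the WT arrays, 11.02, 10.81 and 11.09 on the CK arrays and 8.94, 8.94 and 8.87 on the KO arrays. Cdkn2b, the neighbouring inhibitor p15, measured 8.70, 8.45 and 8.60 on the WT arrays, 11.14, 11.27 and 11.26 on the CK arrays and 9.34, 9.34 and 9.29 on the KO arrays. CK was far above KO for both, and KO arrays were still above all WT arrays. The pooled rise of Cdkn2b, though not that of Cdkn2a, was lost when the mutants were treated as 1 group (adjusted p = 0.0655). Ccne2, a cyclin that activates CDK2, rose evenly and measured 7.17, 7.45 and 7.36 on the WT arrays, 8.96, 8.66 and 8.10 on the CK arrays and 8.33, 8.10 and 8.51 on the KO arrays. The cyclins Ccnd1 (-0.47 in CK and -1.17 in KO) and Ccnd3 (-0.24 in CK and -0.51 in KO), the kinase Cdk2 (-0.41 in CK and -0.38 in KO) and Cdk14 (-1.16 in CK and -1.66 in KO) fell. In the list of pocket protein, E2F and DREAM genes, 5 of 26 rose and 1 fell in both. E2f4, the E2F of quiescent cells, rose by 0.64 in CK and 0.50 in KO, its partners Tfdp1 by 0.58 in CK and 0.35 in KO and Tfdp2 by 0.97 in CK and 0.62 in KO, and Hdac1, a histone deacetylase, fell (-0.42 in CK and -0.94 in KO).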

How the data were processed

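The submitters' processing notes name RMA and affy, so the authors' deposited values are taken as log2 expression after RMA. Versions are not given in the sources used here. RMA sets all arrays to one distribution, which hides a change in total RNA, and no detection calls were given. The deposited table, of 34760 probe sets by 9 arrays, had lost its decimal mark (0 cells held a point or comma). It was put back as 10 or more for strings starting with 1 and below 10 for the rest; where arrays of a group straddled 10, the median range within the group was 0.263 afterwards and 8.92 before, against 0.133 elsewhere. No other column of per-sample values was present (0 unused).

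Platform annotation named 21640 probe sets with 1 symbol (1321 had several, 11799 none), and 21553 were found in RefSeq GRCm38.p6. They cover 19937 genes. The brightest probe set stood for each of the 954 genes with more than 1. Genes whose mean over the arrays reached the 40th percentile of all genes (7.24) were tested. limma 3.58.1 in R 4.3.3 fitted 1 coefficient per genotype over all 9 arrays (6 residual and 4.1 prior degrees of freedom) with Benjamini-Hochberg adjustment over 11962 genes; shared means called in CK and in KO with the same sign. Genes, lists and the rule were chosen with earlier results of these data known. Named genes are Cdkn1b; the 15 rises and 15 falls largest in the weaker mutant, without overlap; the 6 closest between mutants; up to 4 shared genes per list with the smallest pooled p; and 5 of each kind called in opposite directions. Other members were picked from their lists for their roles after their values were seen. Of 1574 list entries in 45 lists, 1465 matched a gene; 1 list is not reported here. In simulated data for the pooled comparison (11962 genes, 50 changed per size), 44% of changes of 0.25 were recovered, 92% of 0.5 and 100% of 1 and 2, with 4 unchanged genes called. Far fewer genes were changed there than the 57.3% called in the data, so these rates need not carry over. The number of arrays limits the precision; the SD among arrays of a genotype had a median of 0.071 (WT), 0.085 (CK) and 0.067 (KO). Alternatives were other filters, probe set rules, normalizations, variance models, thresholds, a replicate block, 1 mutant group, and leaving out each array.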

Additional observations from a re-analysis of the deposited data

Results flagged for a closer look

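In the 10 genes below CK and KO were called in opposite directions from WT. They were taken as the 5 of each kind with the largest change in the weaker mutant. A large CK minus KO difference that passes limma follows from that choice and is no separate result. Those higher in CK follow first, and the CK minus KO difference is given for each.

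Pgm5, a phosphoglucomutase relative of adhesion sites, differed by 4.76 between CK and KO: it measured 8.80, 8.73 and 8.67 on the WT arrays, 11.53, 11.56 and 11.50 on the CK arrays and 6.99, 6.84 and 6.47 on the KO arrays. Cd34, a sialomucin of progenitor and stromal cells, differed by 3.73, with means of 10.91 in WT, 12.80 in CK and 9.08 in KO. Angptl4, a secreted inhibitor of lipoprotein lipase, differed by 3.52, with means of 9.79 in WT, 11.53 in CK and 8.01 in KO. Galnt17, a glycosyltransferase, differed by 3.80 (means 8.46 in WT, 10.47 in CK and 6.67 in KO) and Plxdc1, a membrane protein, by 3.84 (means 8.80 in WT, 10.94 in CK and 7.10 in KO). In these 5 genes WT lay between the mutants, as the choice requires, and the pooled difference was small, from -0.02 for Angptl4 to 0.42 for Pgm5.

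Of those lower in CK and higher in KO, Stk32b, a kinase, differed by -4.68, and it measured 9.12, 9.13 and 8.99 on the WT arrays, 6.79, 7.02 and 6.77 on the CK arrays and 11.49, 11.73 and 11.42 on the KO arrays. Srpx, a sushi-repeat protein on the X chromosome, differed by -5.06, the largest of the 10, with means of 9.26 in WT, 6.37 in CK and 11.43 in KO. Fzd8, a Wnt receptor, differed by -3.94 (means 10.58 in WT, 8.60 in CK and 12.54 in KO), Selenbp1 by -3.85 (means 8.38 in WT, 6.30 in CK and 10.15 in KO) and Foxp2, a forkhead factor, by -3.81 (means 9.28 in WT, 7.22 in CK and 11.03 in KO). Their adjusted p for CK minus KO, small because of the choice, ran from 7.83e-11 for Stk32b to 7.97e-10 for Fzd8 by limma. Among all 10 genes only Pgm5 and Srpx were called in the pooled comparison (limma adjusted p = 0.00348 and 0.0126), and neither was called with the mutants as 1 group (adjusted p = 0.866 and 0.894). These are among 627 genes (5.24% of tested) higher in CK and lower in KO and 700 (5.85%) of the reverse kind, for which an average over both mutants describes neither.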

How the results depend on the processing

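The totals of pooled and shared calls stayed within 1.5-fold of those reported under other probe set rules, normalizations, variance models, array weights and removal of 238 genes tied within a group. Treating the mutants as 1 group gave 2714 pooled calls (1315 rises, 1399 falls), left Cdkn1b at -2.23 without a call (adjusted p = 0.192) and ended the call of 27 of 177 genes named by the rule. Its reading for every other gene and for list members was added after the data were seen, and of the 14 shared matrix falls it called 9. The other Cdkn1b probe set gave -0.084. At 2-fold or more there were 863 pooled calls (316 rises, 547 falls), 393 shared (109 rises, 284 falls), of which 270 differed between CK and KO, and 72 opposite calls. Shared members at 2-fold were then 1 sterol fall, 0 rises and 0 falls in ribosome biogenesis, 0 ribosomal protein rises, 0 rises and 6 falls in the TGF-beta, BMP and IGF list, 5 rises and 6 falls in matrix, and 5 vascular falls. At an adjusted p under 0.01, 1177 shared genes differed between CK and KO and 852 calls were opposite. The 60th percentile filter left 149 shared falls of 2-fold and 8 vascular falls; it also drops genes that fell to background. Ribosome biogenesis falls were 1 in place of 2 without the filter, with median centring and at 0.01, and 1 to 2 when arrays were left out.

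The replicate number as a block gave 6701 pooled and 3156 shared calls and changed no call of a named gene. Deviations of same-numbered arrays of different groups had r from -0.303 to 0.361 in 9 pairs, against -0.339 to 0.252 in 18 others. Same-numbered WT and KO arrays were all positively correlated (r = 0.050, 0.249 and 0.361), whereas pairs with a CK array ran from -0.303 to 0.052. Deviations from means of 3 arrays cannot settle whether the numbers pair the arrays. Leaving out 1 array gave 6076 to 6827 pooled and 2826 to 3194 shared calls, and 100 to 112 rises and 280 to 294 falls at 2-fold. Among named genes, signs turned only for Angptl4, Fzd8 and Cd34, whose pooled differences are near 0. Median centring gave 0.0061 for Angptl4 and 0.019 for Fzd8, and array weights 0.0037 for Angptl4. With 1 array left out, Angptl4 ran from -0.039 to 0.018, Fzd8 from -0.16 to 0.093 and Cd34 from -0.0063 (without KO replicate 1) to 0.081. Srpx lost its pooled call without WT replicate 3 (adjusted p = 0.0694). Foxp2 gained one without WT replicate 3, Selenbp1 without CK replicate 1, Galnt17 without KO replicate 2, and Plxdc1 without CK replicate 2 or KO replicate 3.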

Other observations

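Further shared genes of 4-fold or more, chosen after their values were seen, add to the picture of what fell. Ace, the angiotensin-converting enzyme, fell (-3.12 in CK and -3.84 in KO), and Eng, a TGF-beta co-receptor (-2.85 in CK and -2.69 in KO). Apoe, the lipid carrier, fell (-2.60 in CK and -3.90 in KO), Cp, the copper oxidase ceruloplasmin (-2.85 in CK and -3.21 in KO), and Pygl, a glycogen phosphorylase (-2.37 in CK and -2.54 in KO). Ucp1, the uncoupling protein of brown fat, fell (-3.44 in CK and -3.27 in KO). Pax8 fell (-3.11 in CK and -2.94 in KO) and Tbx1 (-2.83 in CK and -3.91 in KO). Rises of this size included Gfra2, a receptor of the GDNF family (4.27 in CK and 2.37 in KO), Sort1, the sorting receptor sortilin (2.55 in CK and 2.03 in KO), Mtss1 (2.34 in CK and 3.28 in KO) and Tubb2b, a tubulin (2.40 in CK and 2.51 in KO).

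Axon guidance genes, which also steer other cells, fell in 14 and rose in 7 of 43 tested cases, with Epha7 (-2.96 in CK and -3.16 in KO), Sema6d (-2.59 in CK and -3.11 in KO) and Robo2 (-2.29 in CK and -3.21 in KO) lower and Sema3c (1.49 in CK and 2.34 in KO) and Plxnb1 (1.58 in CK and 2.23 in KO) higher in both. Of 16 tested cadherins and protocadherins 6 fell, among them Pcdh18 (-1.23 in CK and -2.26 in KO), and Cdh13 rose (2.52 in CK and 2.02 in KO). Of 32 tested glycolysis and hypoxia genes 12 rose and 2 fell in both: Pfkp (0.70 in CK and 0.67 in KO) and Slc2a1 (0.64 in CK and 0.40 in KO) rose, and Aldoc fell (-3.20 in CK and -3.13 in KO). With the mutants as 1 group 6 of the 12 rises were called, and those of Egln3, Pkm and Ero1a were not (adjusted p = 0.0724, 0.0639 and 0.0923). Of 34 tested NRF2 and glutathione genes 8 fell and 2 rose, with Mgst1 (-2.20 in CK and -3.82 in KO), Nqo1 (-3.61 in CK and -1.45 in KO) and Gstt1 (-1.03 in CK and -0.95 in KO) lower. The list of imprinted and related genes had 7 falls and 4 rises among 22 tested members. The 4 rises include X-linked Gpc3, which is also counted among the matrix genes. Zim1 was higher (2.05 in CK and 5.52 in KO) and Dlk1 lower (-0.43 in CK and -0.53 in KO). With the mutants as 1 group 3 of the 7 falls were called, and that of Dlk1 was not (adjusted p = 0.0657). Shared members numbered 6 rises and 3 falls among 68 respiratory chain genes, with the counts in the same order for 56 splicing (8 and 0), 38 lysosomal (0 and 5), 26 interferon (3 and 5), 25 p53 (3 and 2, or 3 and 1 with the mutants as 1 group) and 17 circadian genes (1 and 2). Of 20 tested cartilage genes 1 was shared, Ucma (1.99 in CK and 5.81 in KO), while 16 rose in KO and 11 fell in CK. KO called 51.2% and CK 62.9% of all tested genes, rises and falls together.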
